A study of Mus musculus with 88 samples.

Results

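The replication-dependent histone genes of the mouse encode the core histones H2A, H2B, H3 and H4 and the linker histone H1. They were taken as the protein-coding genes of GENCODE vM21 whose symbol starts with Hist1h, Hist2h, Hist3h or Hist4h. The rule gave 67 genes of the 53749 gene IDs in the count tables, all 67 present in each of the 3 tables. By class they comprise 6 H1, 18 H2A, 18 H2B, 12 H3 and 13 H4 genes. By position on GRCm38 they form the Hist1 cluster on chromosome 13 (54 genes, 21715763 to 23934851), the Hist2 cluster on chromosome 3 (10 genes, 96219865 to 96270132), the Hist3 pair on chromosome 11 (58948920 to 58956830) and Hist4h4 alone on chromosome 6 (136801553 to 136804415).

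Nuclei came from C57BL/6J mice aged 4 months and were sorted from 2 brain regions, the medial prefrontal cortex (mPFC) and the hippocampus (HIP). The conditioning tables compare home-cage naive mice with mice killed 10 or 30 minutes after contextual fear conditioning (CFC), in which a foot shock is paired with a new context, in neuronal NeuN+ and non-neuronal NeuN- nuclei. The corticosterone table compares hippocampal NeuN+, GFAP+ (astrocyte-enriched), PU.1+ (microglia-enriched) and 3X- (NeuN-, GFAP- and PU.1-, oligodendrocyte-enriched) nuclei 30 minutes after saline or 2 mg/kg corticosterone, the main glucocorticoid of rodents. γH2AX, the form of H2A.X phosphorylated around DNA double-strand breaks, was mapped by ChIP-Seq in whole tissue of naive and CFC mice, with animals pooled for each replicate.

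Histone proteins package DNA, and dividing cells make most of them during S phase, when new DNA has to be wrapped. The S phase mRNAs are not polyadenylated and end in a conserved stem-loop that is bound by SLBP (stem-loop binding protein) and trimmed with the help of the U7 snRNP. Non-dividing cells such as neurons rely mainly on replacement histones from other genes, and a few of the clustered genes, among them Hist1h1c, Hist1h2bc and Hist2h2be, can also give polyadenylated mRNA in differentiated cells. The libraries were made from total nuclear RNA, so RNA with and without a poly(A) tail could enter them.

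The genes are short: 62 of 67 have 1 exon and the median gene model is 539 bp. Counts were taken over the whole gene body, which in GENCODE vM21 spans for 7 genes more than 2500 bp and for 24 genes overlaps another gene model. The widest is Hist1h2be, an H2B gene on the minus strand of chromosome 13 (23583670 to 23621124, 37455 bp), which overlaps Hist1h1e and Gm11398 and took 48.9% of all counts on the 67 genes. Hist1h2bc (H2B, chromosome 13, 23684199 to 23692908, plus strand) covers 8710 bp in 2 exons and overlaps no other model. Counts of these wide models can hold intronic or read-through RNA and are given with that limit.

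A search of GRCm38 found the processing signal in 63 of the 67 genes (94.0%) within 150 bases after the stop codon, against 3 of 21685 other protein-coding genes (0.0138%). The pattern searched was a perfect stem of 6 base pairs that opens with GG and has T as its last base before the loop, with a loop of 4 bases that opens with TT, on the gene's strand. No match lay in this window for Hist1h2an, Hist1h3g, Hist1h4a and Hist2h2be. The 6 forms that occurred are printed because they set the H4 genes apart from the other classes, with the stem in capitals and the loop in lower case.
H1, H2A, H2B and H3 genes, 41 in all: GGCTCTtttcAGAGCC
H1, H2A, H2B and H3 genes, 9 in all: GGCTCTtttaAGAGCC
Hist2h2ac: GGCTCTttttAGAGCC
H4 genes, 8 in all: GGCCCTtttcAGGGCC
Hist1h4i and Hist2h4: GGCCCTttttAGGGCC
Hist1h4b and Hist1h4j: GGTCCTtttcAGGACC
All 12 H4 genes with a match had a stem that no gene of the other classes had.

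Of the 67 genes 62 had an entry in the RefSeq promoter table of GRCm38.p6 (250 bases before to 50 after the start), and those without were Hist1h2bc, Hist1h3a, Hist1h3f, Hist2h2be and Hist2h4. Each motif was searched on both strands, as an exact match. CCAAT, the NF-Y element, was found in 85.5% of the 62 promoters and 37.4% of all 32851 promoters, and TATAAA in 56.5% and 13.6%. ATTTGCAT, the octamer bound by Oct-1, was found in 21.0% and 1.74%, in 7 of 18 H2A and 6 of 16 H2B promoters and in none of the H1, H3 or H4 promoters. GGTCCG, the core of the H4 element bound by HiNF-P, was found in 21.0% and 8.25% and in 11 of 12 H4 promoters. AAACACA, an element of H1 promoters, was found in 14.5% and 7.18% and in 5 of 6 H1 promoters. CCAAT was in all H1, H2A, H2B and H3 promoters of the table but in 3 of 12 H4 promoters.

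The 200 bases before the RefSeq start are printed for 5 genes on which the results below turn, with the searched motifs in capitals, on the gene's strand. Hist1h2ac is shown because it lies head to head with Hist1h2bc, and its upstream region faces that gene.
Hist1h2ac (H2A), chr13:23683960-23684159, minus strand: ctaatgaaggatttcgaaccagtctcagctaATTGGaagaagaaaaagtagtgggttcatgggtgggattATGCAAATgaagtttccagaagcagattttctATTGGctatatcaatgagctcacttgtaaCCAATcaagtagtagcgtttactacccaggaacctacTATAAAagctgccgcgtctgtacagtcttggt
Hist1h1c (H1), chr13:23738607-23738806, plus strand: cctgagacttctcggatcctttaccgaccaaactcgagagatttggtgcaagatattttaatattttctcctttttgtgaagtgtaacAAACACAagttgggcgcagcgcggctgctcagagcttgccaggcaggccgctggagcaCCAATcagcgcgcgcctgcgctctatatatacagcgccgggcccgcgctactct
Hist3h2a (H2A), chr11:58954485-58954684, plus strand: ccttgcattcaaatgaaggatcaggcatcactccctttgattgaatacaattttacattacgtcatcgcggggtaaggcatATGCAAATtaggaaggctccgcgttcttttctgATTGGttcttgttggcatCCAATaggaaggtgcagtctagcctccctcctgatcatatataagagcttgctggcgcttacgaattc
Hist1h4d (H4), chr13:23581368-23581567, plus strand: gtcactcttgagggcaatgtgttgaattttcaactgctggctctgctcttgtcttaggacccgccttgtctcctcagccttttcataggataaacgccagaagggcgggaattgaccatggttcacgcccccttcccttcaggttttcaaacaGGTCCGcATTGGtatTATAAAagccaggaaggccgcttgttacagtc
Hist4h4 (H4), chr6:136804432-136804631, minus strand: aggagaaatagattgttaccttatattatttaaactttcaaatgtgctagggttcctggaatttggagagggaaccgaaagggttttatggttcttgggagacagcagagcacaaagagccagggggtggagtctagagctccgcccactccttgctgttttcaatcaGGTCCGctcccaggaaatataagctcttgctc
In these letters the H2A promoters hold the octamer (read here as ATGCAAAT on the gene's strand), the H1 promoter holds AAACACA and the H4 promoters hold GGTCCG. In all, 24 of the 67 genes form 12 head-to-head pairs of an H2A and an H2B gene, with 279 to 335 bp (median 300) between their coding starts.

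Many of the genes are near copies. The 13 H4 genes encode 1 protein, the 12 H3 genes 3, the 18 H2A genes 9, the 18 H2B genes 12 and the 6 H1 genes 6, as translated from the annotated coding sequences. In 60 of 67 genes some 50-base stretch of the gene body recurs in another of the genes, and in 30 genes at least 50% of such stretches do. Those 30 genes had a median of 37.5 counts summed over all libraries and the other 37 a median of 221. How the counting treated reads with several matches is not given in the sources used here, so the level of a gene with a close copy is uncertain.

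Library depth ranged from 5935395 to 18271372 counts over 73 RNA libraries. Naive NeuN- hippocampal libraries 3 and 4 held identical counts and entered as 1 library. The sorted fractions matched their labels: neuronal markers summed to 5270 to 5380 CPM (counts scaled to the library total) in naive hippocampal NeuN+ and 338 to 535 in NeuN- nuclei, microglial markers to 4590 to 4970 in saline PU.1+, astrocyte markers to 2700 to 3520 in saline GFAP+ and oligodendrocyte markers to 9350 to 9860 in saline 3X- nuclei. Neuronal markers still summed to 945 to 1340 CPM in saline GFAP+ and 689 to 1030 in saline PU.1+ nuclei. In the NeuN- CFC 10-minute group of the hippocampus, library 2 had 38.1 CPM of the choroid plexus markers Ttr and Kcnj13 and the other 3 had 0.325 to 0.702. HIP and mPFC libraries were made with different versions of the kit, so region and kit cannot be told apart.

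Most of the histone genes had few counts, on short gene models (median 539 bp, against 17403 bp over all protein-coding genes). The paper lists histone genes as an example of highly expressed housekeeping genes without induction. No level of all genes is given beside the values here, so how they rank among all genes was not tested. Hist1h2aa, Hist1h2ap and Hist1h2ba had no count in any library, and 2 of these, Hist1h2aa and Hist1h2ba, are known as testis histones. A further 34 genes had 1 to 73 counts over all libraries, and 37 genes in all averaged under 1 count per library. The 8 genes with an average of at least 10 counts per library were Hist1h2be, Hist3h2a, Hist1h2bc, Hist1h1e, Hist1h1c, Hist2h2be, Hist2h4 and Hist1h4d. Per length of gene body, as FPKM (counts scaled to library total and gene length, averaged over all libraries), Hist3h2a was highest at 2.92, followed by Hist2h2bb at 2.02, Hist2h2ac at 1.73, Hist1h1c at 1.5 and Hist1h1e at 1.39.

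The first question is how much histone RNA neuronal and glial nuclei held without treatment. Summed over all 67 genes, naive hippocampal NeuN+ nuclei held 34.1 ± 2.23 CPM (SD, n = 4) and NeuN- nuclei 57.8 ± 2.55 (n = 3), and the mPFC fractions held 25.6 ± 1.30 and 63.3 ± 6.98 (n = 3 each). In the saline groups the sums were 38.5 ± 2.44 in NeuN+, 49.4 ± 5.36 in 3X-, 78.5 ± 6.37 in GFAP+ and 110 ± 11.2 in PU.1+ nuclei (n = 4 each). The ranges of these saline groups did not overlap, so in plain CPM, before the scaling described below, the order ran from NeuN+ over 3X- and GFAP+ to PU.1+ nuclei. In bulk samples fewer cells of a type and less RNA per cell cannot be told apart. The 60 genes of up to 2500 bp, without the wide models, gave 15.1 ± 2.06, 22.7 ± 3.40, 33.8 ± 3.81 and 36.2 ± 2.85 CPM in the same order, and here the ranges of GFAP+ (29.5 to 38.8) and PU.1+ (33.4 to 40.0) overlapped. The sum over 1018 other single-exon genes of up to 2500 bp, a comparison chosen after seeing the data, was also lower in NeuN+ nuclei. It averaged 170 CPM in naive hippocampal NeuN+ and 306 in NeuN- nuclei, and 150 and 322 in the mPFC. In the saline groups it averaged 197 in NeuN+, 394 in 3X-, 355 in GFAP+ and 429 in PU.1+ nuclei. A lower sum in NeuN+ nuclei was thus not particular to the histone genes.

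**Figure D1:**
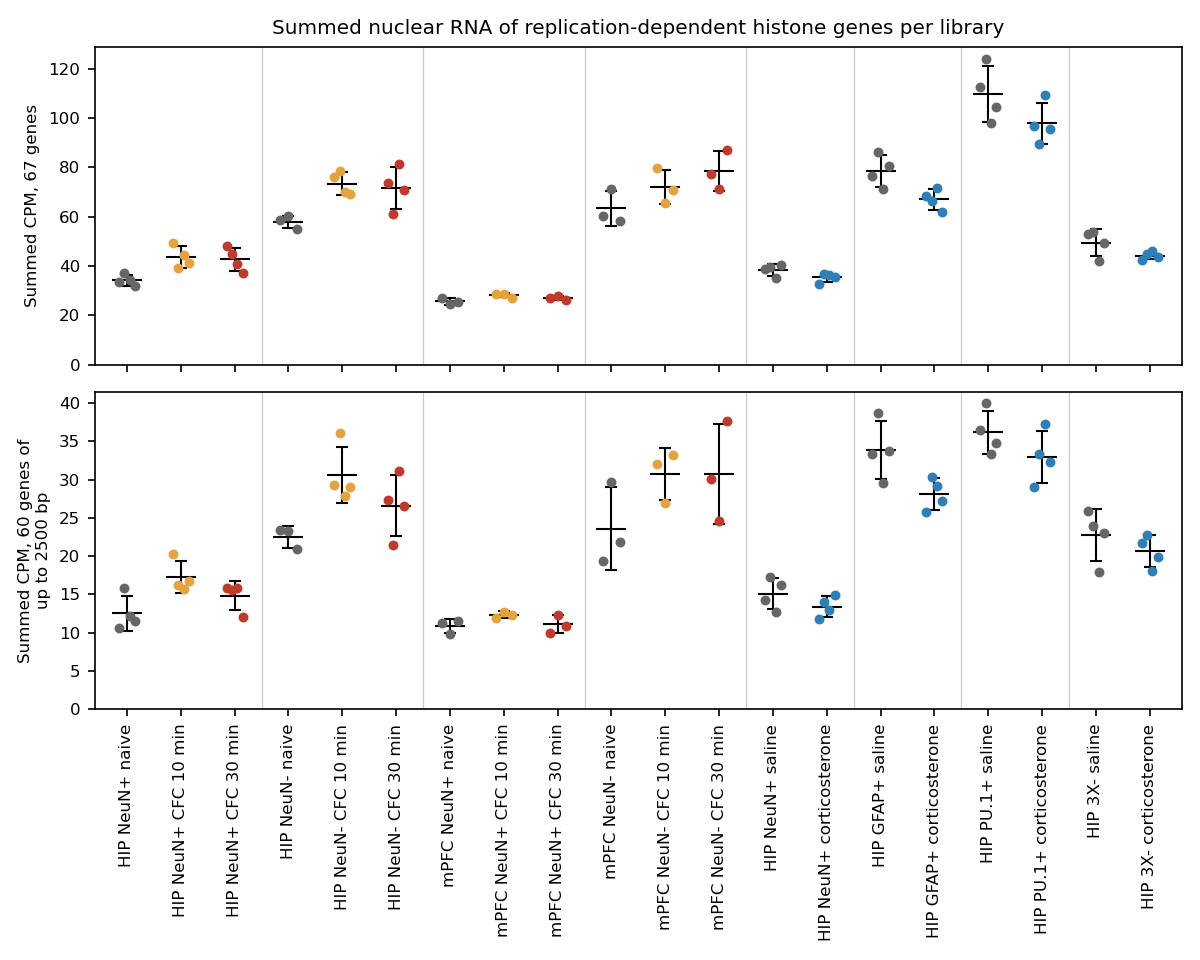
Summed CPM per library for all 67 genes (top) and for the 60 genes with a model of up to 2500 bp (bottom) in the 20 groups; points are libraries, the horizontal mark and bar are the mean and SD. NeuN+ groups lie lowest (25.6 to 43.6 CPM on average in the top panel) and saline PU.1+ nuclei highest (110).

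By class, the H1 and H2B means followed this order, and the H2A, H3 and H4 means did not. H1 genes summed to 1.54 ± 0.772 CPM in saline NeuN+ nuclei, 6.31 ± 0.548 in 3X-, 9.70 ± 2.24 in GFAP+ and 11.9 ± 1.67 in PU.1+ nuclei. H3 genes were the lowest class, with 0.804 ± 0.119, 2.41 ± 0.782, 3.11 ± 0.741 and 1.29 ± 0.151. H2A genes, led by Hist3h2a, spanned a narrower range, with 7.61 ± 0.327, 6.95 ± 1.20, 9.82 ± 0.509 and 13.6 ± 1.22. H4 genes gave 4.75 ± 1.29, 6.61 ± 2.61, 10.8 ± 2.63 and 9.01 ± 0.859. H2B genes gave 23.8 ± 0.939, 27.1 ± 3.18, 45.1 ± 2.75 and 73.9 ± 8.33, most of it on the wide Hist1h2be model.

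Single genes were tested with edgeR's quasi-likelihood test over all genes with a mean above 0.2 FPKM in at least 1 group, and a gene was called at a Benjamini-Hochberg adjusted p under 0.05. Since the filter looks at the groups compared, counts among the histone genes that passed are a description and are read beside the share of all genes called. In the hippocampus 27 of 67 passed, and 9 were higher and 2 lower in NeuN- than in NeuN+ nuclei, which is 40.7% of those tested where 73.1% of all genes were called (37.4% higher and 35.7% lower). In the mPFC 28 passed, and 8 were higher and none lower, where 72.3% of all genes were called (37.4% higher, 35.0% lower). Against saline NeuN+ nuclei, 45 passed and 17 were higher and 3 lower in GFAP+ (64.4% of all genes called, 31.7% higher and 32.6% lower). In PU.1+ nuclei 12 were higher and 2 lower (72.3%, 36.9% and 35.4%), and in 3X- nuclei 6 were higher and 3 lower (65.1%, 33.9% and 31.2%). Of other single-exon genes of up to 2500 bp that passed, 79 of 162 were called in HIP, 73 of 173 in mPFC, 82 of 211 in GFAP+, 115 of 211 in PU.1+ and 85 of 211 in 3X- nuclei. Of the histone genes that passed, 40.7%, 28.6%, 44.4%, 31.1% and 20% were called in the same order. These shares are descriptions, and their differences were not tested.

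The scaling matters here. TMM, the scaling in edgeR that assumes most genes alike between groups, shifted the log2 fold changes against plain CPM by -0.48 and -0.50 in the HIP and mPFC fraction comparisons and by -0.36, -0.49 and -0.29 for GFAP+, PU.1+ and 3X- nuclei. A small difference between fractions therefore rests on it. For the CFC and corticosterone comparisons the shift was at most 0.05 in size.

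Of the 6 H1 genes, Hist1h1c and Hist1h1e were called higher in NeuN- nuclei of both regions and in GFAP+, PU.1+ and 3X- nuclei. Hist1h1c (chromosome 13, 23738808 to 23740367, plus strand, 1 exon) encodes H1.2, a linker histone that binds DNA between nucleosomes. It had 0.500, 0.928, 0.573 and 0.422 CPM in the naive hippocampal NeuN+ libraries and 4.07, 3.44 and 3.56 in NeuN- libraries, so the groups lay far apart. Its log2 fold change was 2.04 ± 0.25 (SE, edgeR adjusted p = 6.04e-07), and in the mPFC 1.55 ± 0.34 (adjusted p = 0.00109). In the saline libraries it had 0.362, 0.835, 0.399 and 0.426 CPM in NeuN+, 2.68, 1.49, 2.55 and 2.09 in 3X-, 4.90, 4.57, 4.26 and 3.6 in GFAP+ and 6.31, 7.20, 6.22 and 6.01 in PU.1+ nuclei. These 4 populations did not overlap, and the log2 fold changes over NeuN+ were 1.87 ± 0.31, 2.74 ± 0.28 and 3.19 ± 0.26 (edgeR adjusted p from 2.81e-11 to 9.78e-06).

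Hist1h1e, which encodes H1.4, behaved alike, although its model overlaps that of Hist1h2be. It averaged 0.678 CPM in hippocampal NeuN+ and 3.68 in NeuN- nuclei, and the log2 fold change was 1.87 ± 0.30 there and 1.93 ± 0.26 in the mPFC (edgeR adjusted p = 1.79e-05 and 2.07e-05). Over saline NeuN+ nuclei, at 0.371 CPM on average, it was higher by 3.06 ± 0.45 in GFAP+, 2.91 ± 0.46 in PU.1+ and 2.96 ± 0.46 in 3X- nuclei on the log2 scale. In the saline groups it passed the filter only through the glial populations (0.192 FPKM in NeuN+). The calls of Hist1h1c and Hist1h1e held in each of the fits that left out 1 library.

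Among the H2B genes called, Hist1h2bc had the highest log2 fold change between fractions in both regions, and it passed the filter there only through NeuN- nuclei. In the mPFC it had 0, 0.166 and 0.242 CPM in naive NeuN+ libraries and 4.52, 5.47 and 4.92 in NeuN- libraries. In the hippocampus it had 1.08, 0.866, 0.655 and 0.422 CPM in NeuN+ and 4.07, 5.37 and 3.91 in NeuN- libraries, a log2 fold change of 2.06 ± 0.25 (edgeR adjusted p = 5.13e-07). Neither pair of groups overlapped, and the mPFC log2 fold change was 4.57 ± 0.40 on a NeuN+ mean of 1.67 counts. Over saline NeuN+ nuclei (1.41 CPM on average) it was higher by 2.06 ± 0.26 in GFAP+, 1.62 ± 0.27 in 3X- and 1.23 ± 0.28 in PU.1+ nuclei. There too it passed the filter only through the glial populations (0.162 FPKM in NeuN+). Its head-to-head partner Hist1h2ac did not pass the filter in the fraction comparison of either region. In the saline populations it passed only through GFAP+ nuclei (0.338 FPKM, against 0.0552 in NeuN+), where it is high. It was called in GFAP+ nuclei (0.839 against 0.137 CPM, log2 2.11 ± 0.57, edgeR adjusted p = 0.00213) and not in PU.1+ or 3X- nuclei, and whether the comparisons differ was not tested.

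Hist2h2be, the other H2B gene with a known polyadenylated form, was higher in NeuN- nuclei in both regions (log2 1.34 ± 0.29 and 1.93 ± 0.27) and in GFAP+ (2.00 ± 0.35) and PU.1+ nuclei (1.52 ± 0.37). In the mPFC it passed the filter only through NeuN- nuclei, where it is high. Its partner Hist2h2ac, an H2A gene, was called higher in the same 4 comparisons, with log2 fold changes of 1.39, 1.42, 1.58 and 1.95. Hist1h2bg had its clearest difference in PU.1+ nuclei, with 1.63 against 0.160 CPM and a log2 fold change of 2.89 ± 0.55 (edgeR adjusted p = 4.37e-05). The wide Hist1h2be model averaged 20.2 CPM in saline NeuN+, 18.0 in 3X-, 31.2 in GFAP+ and 62.6 in PU.1+ nuclei. Its log2 fold change was 1.14 ± 0.08 in PU.1+ and 0.27 ± 0.09 in GFAP+ nuclei, while the value of -0.46 in 3X- nuclei, where the libraries overlapped, is mostly the scaling shift of -0.29.

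Hist3h2a, the H2A gene of the Hist3 pair, was not called higher in any of these 5 comparisons. Its naive hippocampal libraries held 5.51, 6.81, 6.22 and 5.58 CPM in NeuN+ and 5.11, 5.87 and 4.08 in NeuN- nuclei, which overlap, and the call as lower in NeuN- (log2 -0.74 ± 0.15, edgeR adjusted p = 0.000146) includes the scaling shift of -0.48. In the saline groups it averaged 6.39 CPM in NeuN+, 6.36 in GFAP+, 4.67 in 3X- and 9.73 in PU.1+ nuclei. In plain CPM every PU.1+ library (8.59 to 11.1) lay above every NeuN+ library (6.12 to 6.89). The missing call as higher in PU.1+ nuclei therefore includes the scaling shift of -0.49. The 3X- libraries (3.84 to 5.69) lay below the NeuN+ libraries (6.12 to 6.89), with a log2 fold change of -0.76 ± 0.15. The call as lower in GFAP+ nuclei (-0.38, adjusted p = 0.0192) rests on the scaling alone, and DESeq2 gave an adjusted p of 0.0772. Its neighbour Hist3h2ba, an H2B gene at 0.477 CPM in saline NeuN+ nuclei, was called lower in GFAP+ and PU.1+ nuclei, both times with overlapping libraries. Hist2h2ab, an H2A gene of the Hist2 cluster, was called lower in the same populations, at 0.237 and 0.292 CPM against 0.509 in NeuN+ nuclei and also with overlapping libraries (log2 -1.41 ± 0.54 and -1.21 ± 0.53).

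Of the H4 genes, which all encode the same protein, Hist1h4d was called higher in GFAP+ (2.58 against 0.766 CPM, log2 1.37 ± 0.34) and PU.1+ nuclei (2.22 CPM, 1.01 ± 0.36). Hist1h4h was called higher in hippocampal NeuN-, GFAP+ and PU.1+ nuclei, at 0.659 to 1.02 CPM. Hist4h4 was called in PU.1+ and 3X- nuclei, and the 3X- call (log2 1.30 ± 0.42) was lost without saline 3X- library 1, which had 2.91 CPM against 0.677 to 1.65 in the others. Hist4h4 passed the filter only through the glial populations (0.190 FPKM in NeuN+), where it is high. Hist1h4i moved the other way, lower in hippocampal NeuN- and in 3X- nuclei, on means of 1.67 and 1.75 counts and with overlapping libraries. Of the 12 H3 genes, Hist1h3d was at 0 in the 3 naive mPFC NeuN+ libraries and averaged 4.00 counts in NeuN-.

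**Figure D2:**
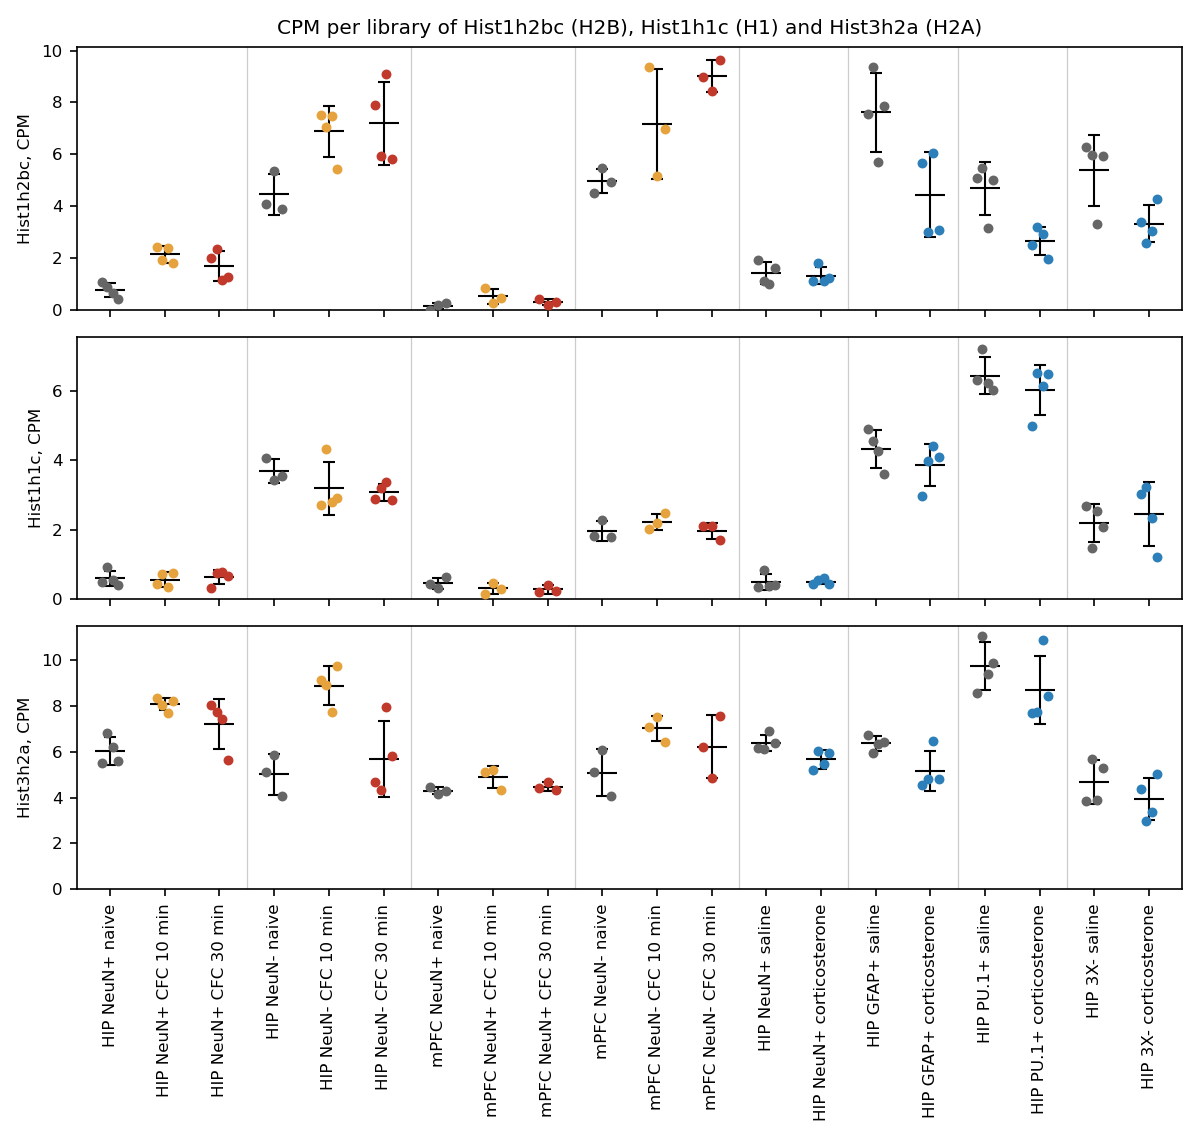
CPM per library of Hist1h2bc, Hist1h1c and Hist3h2a in the 20 groups; points are libraries, the horizontal mark and bar are the mean and SD. Hist1h2bc and Hist1h1c have at most 2.42 CPM in each NeuN+ library, whereas Hist3h2a has 4.15 to 8.36 CPM there.

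The second question is whether CFC changed these genes within a fraction. The 10- and 30-minute groups were each compared with the same naive libraries, so the 2 comparisons are not independent. In hippocampal NeuN+ nuclei the sum over all 67 genes was 34.1 ± 2.23 CPM in naive mice (31.8 to 37.1), 43.6 ± 4.38 at 10 minutes (39.3 to 49.3) and 42.8 ± 4.68 at 30 minutes (37.2 to 47.9, n = 4 each). In NeuN- nuclei it was 57.8 ± 2.55 (55.0 to 60.0, n = 3), 73.4 ± 4.58 (69.0 to 78.5) and 71.6 ± 8.42 (61.1 to 81.5, n = 4 each). In both fractions all CFC libraries lay above all naive libraries. The sum over 1018 other single-exon genes of up to 2500 bp, a comparison chosen after seeing the data, was 170 ± 13.6, 177 ± 3.41 and 165 ± 10.2 CPM in NeuN+ and 306 ± 20.2, 334 ± 37.7 and 314 ± 32.5 in NeuN- nuclei, with overlapping ranges. Over the 60 histone genes of up to 2500 bp the NeuN+ ranges were 10.6 to 15.8, 15.7 to 20.3 and 12 to 15.9 CPM, which overlap. The NeuN- ranges of these 60 genes were 20.9 to 23.5, 27.9 to 36.1 and 21.5 to 31.1, where the 10-minute libraries lay above the naive ones and the 30-minute libraries did not all do so.

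Among the classes, the H2A sum, led by Hist3h2a, lay above the naive range at 10 minutes in both fractions. It ran from 6.01 to 7.92 CPM in naive and 8.77 to 9.97 in 10-minute NeuN+ libraries, and from 5.99 to 7.31 and 10.8 to 11.9 in NeuN- libraries. In NeuN- nuclei the H4 sum ran from 4.73 to 6.25 CPM in naive and 6.96 to 10.1 in 10-minute libraries. The H3 sum there ran from 1.22 to 1.8 CPM in naive, 2.28 to 3.01 in 10-minute and 2.66 to 3.16 in 30-minute libraries. These class sums did not overlap between the naive and the named CFC libraries, and they were chosen after their values were seen. The other class sums after CFC are not printed. The sums are given as levels without a test, so they show no response of a class.

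In hippocampal NeuN+ nuclei 23 of the 67 genes passed the filter. At 10 minutes 1 was higher and none lower, 4.35% of those tested, where 4.86% of all genes were called and 2.72% were higher. At 30 minutes 3 were higher and none lower, where 8.56% of all genes were called and 4.67% were higher. The called genes were Hist1h2bc at both times and Hist1h2be and Hist2h4 at 30 minutes. The share called was thus near the background at 10 minutes.

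Hist1h2bc had 1.08, 0.866, 0.655 and 0.422 CPM in the naive libraries, 2.42, 1.92, 2.38 and 1.81 at 10 minutes and 1.98, 2.33, 1.15 and 1.25 at 30 minutes. Every CFC library lay above every naive library. The mean was 0.0869 FPKM in naive, 0.245 at 10 minutes and 0.192 at 30 minutes, so the gene passed the filter only through the 10-minute group, where it is high. The log2 fold change was 1.42 ± 0.28 at 10 minutes (edgeR adjusted p = 0.00666), which is 2.68-fold, and 1.10 ± 0.30 at 30 minutes (adjusted p = 0.0240). The 10-minute call held in 12 of 12 fits that left out 1 library, with log2 fold changes of 1.24 to 1.62, and the 30-minute call in 8 of 12, the exceptions being those without naive library 3 or 4 or 30-minute library 1 or 2. DESeq2, whose own filter on low means set the gene aside, gave it no adjusted p at either time.

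Hist1h2bc was higher in glia than in neurons, so glial markers are given beside its rise. In these NeuN+ libraries oligodendrocyte markers summed to 95.9 to 124 CPM in naive mice, 113 to 142 at 10 minutes and 104 to 141 at 30 minutes, against 4570 to 4860 in naive NeuN- nuclei. Astrocyte markers summed to 28.2 to 42.1, 29.7 to 38.8 and 27.0 to 34.9 CPM and microglial markers to 1.67 to 4.76, 2.24 to 4.25 and 2.44 to 4.50, with overlapping ranges. No marker of these lists was at 0, and their part in the rise of Hist1h2bc was not tested.

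Hist2h4, an H4 gene of the Hist2 cluster (chromosome 3, 96261682 to 96263311, minus strand), had 1.00, 1.36, 1.06 and 1.01 CPM in naive NeuN+ libraries and 1.98, 2.41, 1.93 and 1.69 at 30 minutes. The groups did not overlap, and the log2 fold change was 0.80 ± 0.24 (edgeR adjusted p = 0.0388). Hist1h2be had 18.6 to 20.9 CPM in naive and 22.3 to 28.2 at 30 minutes, a log2 fold change of 0.31 ± 0.09 (edgeR adjusted p = 0.0270, DESeq2 0.0232). The Hist2h4 call held in 6 of 12 fits that left out 1 library and was lost without naive library 1, 3 or 4 or 30-minute library 1, 2 or 3. The Hist1h2be call held in 7 of 12 and was lost without naive library 2, 3 or 4 or 30-minute library 1 or 2. Hist3h2a, at 5.51 to 6.81 CPM in naive and 7.71 to 8.36 at 10 minutes, did not overlap between these groups either but missed the threshold (log2 0.38 ± 0.11, edgeR adjusted p = 0.0528).

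In hippocampal NeuN- nuclei 38 genes passed the filter. At 10 minutes edgeR called none, where 0.345% of all genes were called, 7 had an unadjusted p under 0.05 and DESeq2 called 1, Hist3h2a. Hist3h2a had 5.11, 5.87 and 4.08 CPM in naive libraries and 9.12, 8.93, 7.72 and 9.76 at 10 minutes, with no overlap, and 4.67, 4.31, 7.97 and 5.81 at 30 minutes, with overlap. The 10-minute log2 fold change was 0.77 ± 0.19 with an edgeR adjusted p of 0.0972 and a DESeq2 adjusted p of 0.0304. Without the library that carried choroid plexus markers edgeR gave 0.78 and an adjusted p of 0.148, and again called none of the 38 genes. Hist2h4 had 1.23, 1.58 and 1.13 CPM in naive and 2.73, 2.56, 2.34 and 1.95 in 10-minute libraries, which do not overlap, and its log2 fold change of 0.80 ± 0.22 missed the threshold (edgeR adjusted p = 0.123).

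At 30 minutes 2 of the 38 were higher and none lower, where 2.38% of all genes were called and 1.2% were higher. Hist1h3d, an H3 gene (chromosome 13, 23575763 to 23577011), had 0.189, 0.430 and 0.521 CPM in naive libraries and 1.21, 0.949, 1.58 and 1.07 at 30 minutes. The groups did not overlap, and the log2 fold change was 1.62 ± 0.38 (edgeR adjusted p = 0.0370). Hist1h2be rose by 0.34 ± 0.09 on the log2 scale (26.9 to 34.1 CPM on average, edgeR adjusted p = 0.0486). The Hist1h3d call held in 5 of 11 fits that left out 1 library and was lost without naive library 1, 2 or 3, 10-minute library 3 or 30-minute library 1 or 3. The Hist1h2be call held in 3 of 11 and was lost without naive library 1, 2 or 3, 10-minute library 3 or 4 or 30-minute library 1, 3 or 4. Hist1h2bc averaged 4.45 CPM in naive, 6.88 at 10 and 7.19 at 30 minutes in this fraction, with log2 fold changes of 0.57 ± 0.19 and 0.68 ± 0.19 that missed the threshold (edgeR adjusted p = 0.174 and 0.0639). Oligodendrocyte markers summed to 4570 to 4860 CPM in naive, 4850 to 5860 at 10 minutes and 5000 to 5410 at 30 minutes in these libraries, and their part in these values was not tested.

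In mPFC NeuN+ nuclei the sums over all 67 genes were 25.6 ± 1.30, 28.1 ± 0.921 and 27.0 ± 0.777 CPM (n = 3 each). Of 21 genes that passed, 1 was higher at 10 minutes, where 14.4% of all genes were called and 8.19% were higher. This was Hist2h2bb, an H2B gene of the Hist2 cluster that overlaps Gm20628 and Gm42743, with 0.344, 0.166 and 0.323 CPM in naive and 0.744, 0.747 and 0.928 at 10 minutes. Its log2 fold change was 1.5 ± 0.47 (edgeR adjusted p = 0.0310) on a naive mean of 3.33 counts, and the call held in 3 of 9 fits that left out 1 library, being lost without any 1 of the naive or 10-minute libraries. At 30 minutes edgeR called none, where 24.7% of all genes were called, and 1 gene, Hist2h2bb, had an unadjusted p under 0.05. DESeq2 also called none, but it gave Hist2h2bb no adjusted p and so could not call it. Oligodendrocyte markers summed to 64.3 to 86.2 CPM in naive, 120 to 156 at 10 minutes and 118 to 184 at 30 minutes in these NeuN+ libraries, and their part was not tested.

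In mPFC NeuN- nuclei the sums were 63.3 ± 6.98, 72.0 ± 7.06 and 78.4 ± 8.17 CPM (n = 3 each), with overlapping ranges of 58.2 to 71.2, 65.5 to 79.5 and 71.0 to 87.2. At 10 minutes edgeR called none of 38 genes, where 1.71% of all genes were called, and 6 had an unadjusted p under 0.05. DESeq2 also called none, but it gave Hist1h2bc and Hist2h4, the genes with the smallest p, no adjusted p. Hist2h4 had 1.39, 1.94 and 1.51 CPM in naive and 2.46, 2.45 and 2.48 in 10-minute libraries, without overlap and short of the threshold (log2 0.61, edgeR adjusted p = 0.204). Here and for the other genes short of the threshold, the share of all genes that separate like this is not given. A lack of overlap is therefore a description. At 30 minutes 1 was higher and none lower, where 5.85% of all genes were called and 2.68% were higher. This was Hist1h2bc, with 4.52, 5.47 and 4.92 CPM in naive and 8.97, 8.44 and 9.66 at 30 minutes. The groups lay apart, the log2 fold change was 0.89 ± 0.19 (edgeR adjusted p = 0.0121, DESeq2 0.00439), and the call held in 8 of 9 fits that left out 1 library, all but the fit without naive library 1. Hist1h2bc was the one histone gene called in more than 1 fraction or region after CFC apart from Hist1h2be, which was called in both hippocampal fractions at 30 minutes.

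No H1 gene was called by edgeR after CFC. Hist1h1c averaged 0.606, 0.572 and 0.635 CPM in hippocampal NeuN+ nuclei of naive, 10-minute and 30-minute mice, and 3.69, 3.20 and 3.08 in NeuN- nuclei. The 30-minute NeuN- libraries (2.86 to 3.38) all lay below the naive ones (3.44 to 4.07), with a log2 fold change of -0.25 that was not called. The 95% interval of its log2 fold change at 30 minutes ran from -0.77 to 0.74 in NeuN+ and from -0.63 to 0.13 in NeuN- nuclei, so changes within these bounds cannot be told from none at this depth.

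The difference between fractions in the 30-minute response was tested as an interaction. In the hippocampus edgeR called none of 39 histone genes, where 0.293% of all genes were called, and in the mPFC none of 39, where 4.18% were called, with 1 gene each at an unadjusted p under 0.05. DESeq2 called none either, but it gave no adjusted p to the histone genes with the smallest p in each region. For Hist1h2bc the difference between NeuN- and NeuN+ was -0.42 ± 0.37 on the log2 scale in the hippocampus (edgeR adjusted p = 0.824) and -0.19 ± 0.70 in the mPFC (edgeR adjusted p = 0.996), so the response was not shown to differ between the fractions.

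**Figure D3:**
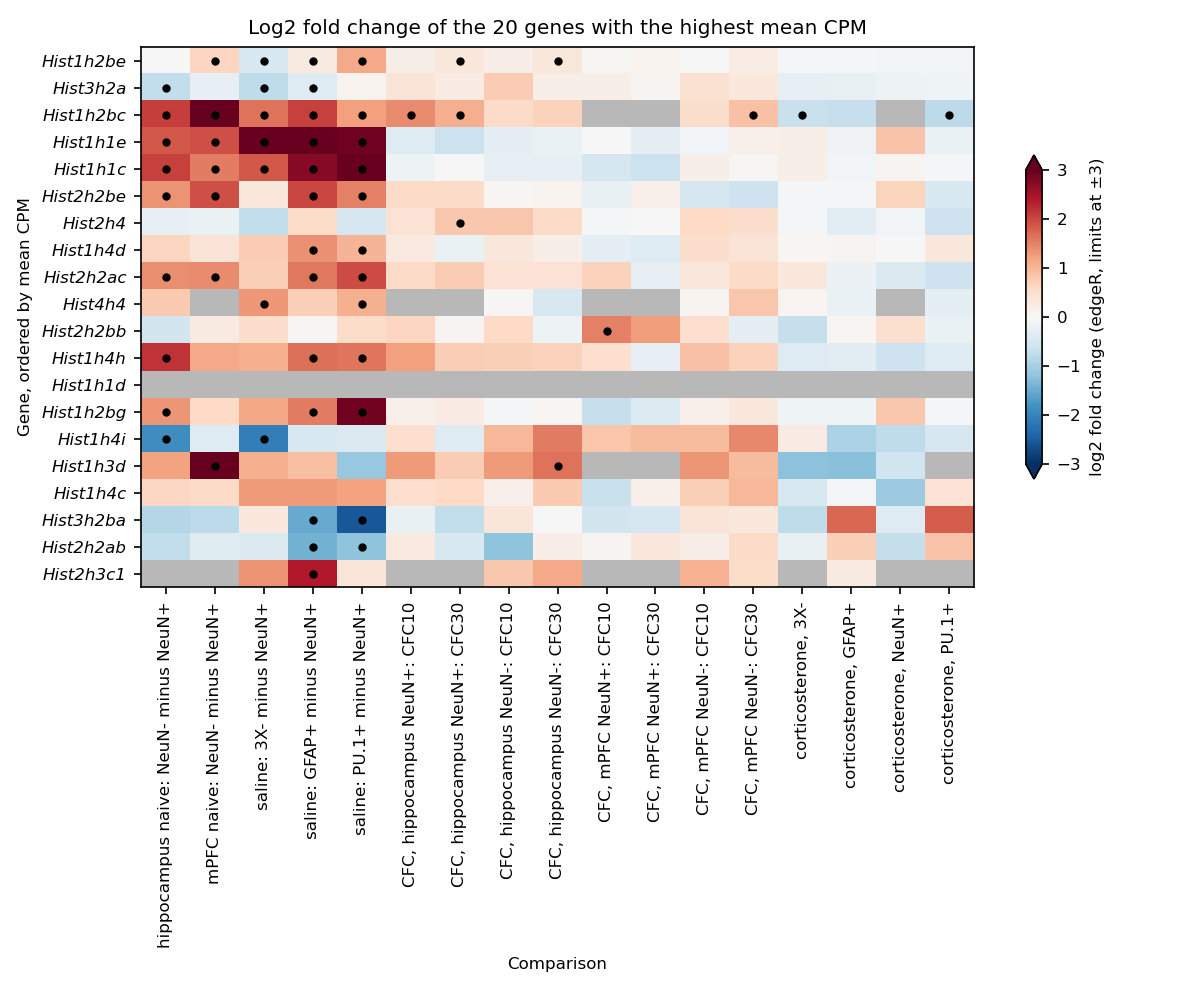
Log2 fold changes (colour, edgeR) of the 20 genes with the highest mean CPM in the 17 comparisons; dots mark an adjusted p under 0.05 and grey cells genes that did not pass the filter. The fraction and population columns hold most of the dots, and Hist1h2bc is the row with dots in the CFC and corticosterone columns most often.

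The third question is how corticosterone, given without conditioning, acted on the same genes. The sums over all 67 genes were 38.5 ± 2.44 CPM after saline and 35.3 ± 1.90 after corticosterone in NeuN+, 78.5 ± 6.37 and 66.9 ± 4.12 in GFAP+, 110 ± 11.2 and 97.8 ± 8.38 in PU.1+ and 49.4 ± 5.36 and 44.1 ± 1.52 in 3X- nuclei (n = 4 each). The mean was lower after corticosterone in each population, and the ranges overlapped in each, in GFAP+ nuclei from 71.2 to 86.2 after saline and 61.7 to 71.5 after corticosterone. H2A genes summed to 9.18 to 10.3 CPM after saline and 7.37 to 8.51 after corticosterone in GFAP+ nuclei, without overlap. The other short single-exon genes summed to 197 and 192, 355 and 359, 429 and 490 and 394 and 399 CPM in the same populations. H3 genes, at 0.804 ± 0.119 after saline and 0.477 ± 0.175 after corticosterone in NeuN+ nuclei, did not overlap in NeuN+ nuclei either, on averages of 7 and 4.25 counts per library. Both class sums were chosen after their values were seen, the other class sums after corticosterone are not printed, and none was tested.

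Few single genes were called. In NeuN+ nuclei edgeR called none of 22 genes, where 2.06% of all genes were called, with none at an unadjusted p under 0.05. DESeq2 called none there, but it gave Hist2h2be and Hist1h1e, the genes with the smallest p, no adjusted p. In GFAP+ nuclei edgeR called none of 39, where 2.93% of all genes were called, with 5 at an unadjusted p under 0.05. DESeq2 called none there, with an adjusted p of 0.136 for Hist1h2bc and no adjusted p for Hist1h2ac. In PU.1+ nuclei 1 of 34 was lower and none higher, where 7.81% of all genes were called and 3.39% were lower. In 3X- nuclei 1 of 36 was lower and none higher, where 7.48% of all genes were called and 2.47% were lower.

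The gene called in both populations was Hist1h2bc. It had 5.10, 5.47, 3.17 and 5.01 CPM after saline and 2.49, 3.18, 2.94 and 1.97 after corticosterone in PU.1+ nuclei, where all but saline library 3 lay above the treated libraries. The log2 fold change was -0.79 ± 0.22 (edgeR adjusted p = 0.0344, DESeq2 0.0468). In 3X- nuclei it had 6.28, 5.96, 3.33 and 5.95 CPM after saline and 3.37, 2.59, 3.06 and 4.26 after corticosterone, again with saline library 3 inside the treated range. There the log2 fold change was -0.67 ± 0.21 (edgeR adjusted p = 0.0388), and DESeq2 gave an adjusted p of 0.118. The PU.1+ call held in 3 of 8 fits that left out 1 library, with log2 fold changes of -0.95 to -0.68, and was lost without saline library 1, 2 or 4 or corticosterone library 1 or 4. The 3X- call held in 2 of 8, with -0.84 to -0.57, and was lost without saline library 1, 2 or 4 or corticosterone library 1, 2 or 3. Same-numbered libraries of these populations may come from the same mice, so the PU.1+ and 3X- results may not be independent.

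In GFAP+ nuclei Hist1h2bc had 7.54, 9.39, 5.68 and 7.86 CPM after saline and 5.65, 2.98, 6.05 and 3.07 after corticosterone, which overlap, and the log2 fold change of -0.70 ± 0.23 missed the threshold (edgeR adjusted p = 0.197). In NeuN+ nuclei it averaged 1.41 CPM after saline and had 1.11, 1.79, 1.11 and 1.24 after corticosterone. Its partner Hist1h2ac had 0.794, 0.865, 0.656 and 1.04 CPM after saline and 0.157, 0.568, 0 and 0.146 after corticosterone in GFAP+ nuclei, which do not overlap, with a log2 fold change of -1.95 ± 0.59 that missed the threshold (edgeR adjusted p = 0.135). Hist1h2ac passed the filter there only through the saline group, where it is high (0.338 against 0.0877 FPKM). Hist3h2a in NeuN+ nuclei had 6.12 to 6.89 CPM after saline and 5.22 to 6.05 after corticosterone, without overlap, and a log2 fold change of -0.16 (edgeR adjusted p = 0.747).

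Tested as interactions against the NeuN+ response, the glial responses of Hist1h2bc differed by -0.60 ± 0.42 (GFAP+), -0.69 ± 0.37 (PU.1+) and -0.54 ± 0.38 (3X-) on the log2 scale, with adjusted p of 0.902, 0.562 and 0.609 in edgeR. Over all histone genes edgeR called no such interaction, where 0.753%, 2.37% and 4.16% of all genes were called, and 1, 4 and 1 had an unadjusted p under 0.05. DESeq2 called none either, but it gave no adjusted p to the histone genes with the smallest p in each population. The response of neurons and glia was therefore not shown to differ. Beside these values, astrocyte markers summed to 274 to 343 CPM in saline and 452 to 621 in corticosterone PU.1+ libraries, and their part was not tested.

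The machinery that makes and binds histone mRNA was looked at through fixed lists. Of 16 genes for transcription and processing of histone mRNA, 15 were tested in each CFC comparison. In mPFC NeuN+ nuclei 5 of them were called at each time, where 14.4% and 24.7% of all genes were called. Of these, 3 were higher at 10 minutes and 2 at 30 minutes, and the others were lower. The rises named next are of single members and do not stand for the list. Lsm11, a subunit of the U7 snRNP, rose by 0.61 ± 0.16 and 0.97 ± 0.15 on the log2 scale, and Slbp rose by 0.57 ± 0.17 at 10 minutes (edgeR adjusted p = 0.00793, 2.54e-05 and 0.0289). After corticosterone Lsm11 was the member of the list that was called, with 0.69 ± 0.13 in NeuN+ and 1.03 ± 0.16 in 3X- nuclei, where 2.06% and 7.48% of all genes were called. In hippocampal NeuN+ nuclei none of this list was called as higher, 1 fell at 10 minutes (Cstf2) and 3 fell at 30 minutes (Coil, Cstf2 and Ice1), where 4.86% and 8.56% of all genes were called. In mPFC NeuN- nuclei Coil fell at 30 minutes, where 5.85% of all genes were called. These counts are descriptions, and their difference from the shares was not tested.

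Of 11 replication-independent histone genes, H3f3a, which encodes the replacement histone H3.3, rose by 0.40 ± 0.08 in hippocampal NeuN+ nuclei at 10 minutes (edgeR adjusted p = 0.00748), where 4.86% of all genes were called. H3f3a fell by 0.37 in GFAP+ and by 0.33 in 3X- nuclei after corticosterone on the log2 scale, where 2.93% and 7.48% of all genes were called. H1f0, the linker histone of non-dividing cells, was higher in NeuN- nuclei by 1.52 ± 0.23 in the hippocampus and 1.60 ± 0.29 in the mPFC, where 73.1% and 72.3% of all genes were called. Of 10 histone chaperones, Nasp, which carries H1 and H3 and H4, rose by 0.31 in mPFC NeuN+ nuclei at 30 minutes and fell by 0.39 in PU.1+ nuclei after corticosterone, and Npm1 fell by 0.38 in 3X- nuclei. Of all genes 24.7%, 7.81% and 7.48% were called in these comparisons. The genes named here are single members and do not stand for their lists.

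Of 22 genes of DNA replication and S phase, 6 were tested in hippocampal NeuN+ and 9 in NeuN- nuclei after CFC. Neither edgeR nor DESeq2 called any of them, and 2 and 1 had an unadjusted p under 0.05 in NeuN+ nuclei and 1 and 0 in NeuN- nuclei at 10 and 30 minutes. After corticosterone 5, 8, 8 and 10 were tested in NeuN+, GFAP+, PU.1+ and 3X- nuclei, again with no call by edgeR or DESeq2 and with 1, 0, 2 and 0 at an unadjusted p under 0.05. Cdk1, Cdk2 and Top2a were at 0 in all naive hippocampal NeuN+ libraries. The list summed to 96.8 to 101 CPM there and 92.6 to 97.2 at 10 minutes. In mPFC NeuN+ nuclei Ccne2 and E2f1 fell by 0.95 and 0.58 on the log2 scale at 30 minutes, where 24.7% of all genes were called.

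The fourth question is where the genes stand in the γH2AX map. The peak lists hold 282 regions in the hippocampus and 260 in the mPFC, called on merged replicates of naive and CFC tissue, without a height or score. By at least 1 bp, 13 of 67 histone genes (19.4%) lay under a peak in the hippocampus and 14 (20.9%) in the mPFC, against 1.99% and 1.89% of all 21951 protein-coding genes. Among genes of up to 2500 bp the shares were 16.7% and 18.3% of the 60 histone genes and 1.79% and 1.43% of 1954 others, and among other single-exon genes of that size 1.06% and 0.963% of 1038. These shares are descriptions, since neighbouring genes share peaks and the peak lists hold no replicate values. The paper's own peak totals are somewhat higher. It also called peaks separately in naive and CFC tissue and tested peaks for a change over replicates, and those results were not used here. At least 50% of the gene model was covered in 10 and 11 of the 67.

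H4 genes and the Hist2 cluster held most of them. In each region 6 of 13 H4 genes (46.2%) lay under a peak, against 2 of 18 H2A, 4 of 18 H2B and 1 of 12 H3 genes, and of the 6 H1 genes none did in the hippocampus and 1 did in the mPFC. By cluster it was 6 of 10 genes in Hist2 and 5 and 6 of 54 in Hist1. The authors' own annotation names 12 of the 67 genes, on 9 peaks in the hippocampus and 10 in the mPFC. The H4 genes named are Hist1h4c, Hist1h4d, Hist1h4h, Hist1h4i, Hist2h4 and Hist4h4, all of them in both regions.

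All 9 hippocampal peaks overlapped a peak of the mPFC list. The Hist4h4 peak lay at chr6:136803603-136804621 in the hippocampus and chr6:136803629-136804662 in the mPFC, over the start of the gene. The hippocampal peak covered all but the outermost bases of the window printed above and the mPFC peak covered it whole. The Hist1h4d peak ran over chr13:23581100-23585735 and chr13:23581075-23583011 and covered the printed promoter of that gene, and in the hippocampus it also reached the 3' part of the Hist1h2be model. A single peak covered Hist2h2ab and Hist2h2ac and reached Hist2h2be, at chr3:96219058-96221355 and chr3:96219257-96221764, and another covered Hist2h3b and Hist2h2bb. The tenth mPFC peak, over Hist1h1e at chr13:23620546-23622553, also overlapped the Hist1h2be model and had no counterpart in the hippocampal list. The H2B gene Hist1h2bc, the H1 gene Hist1h1c and the H2A gene Hist3h2a lay under no peak in either region.

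**Figure D4:**
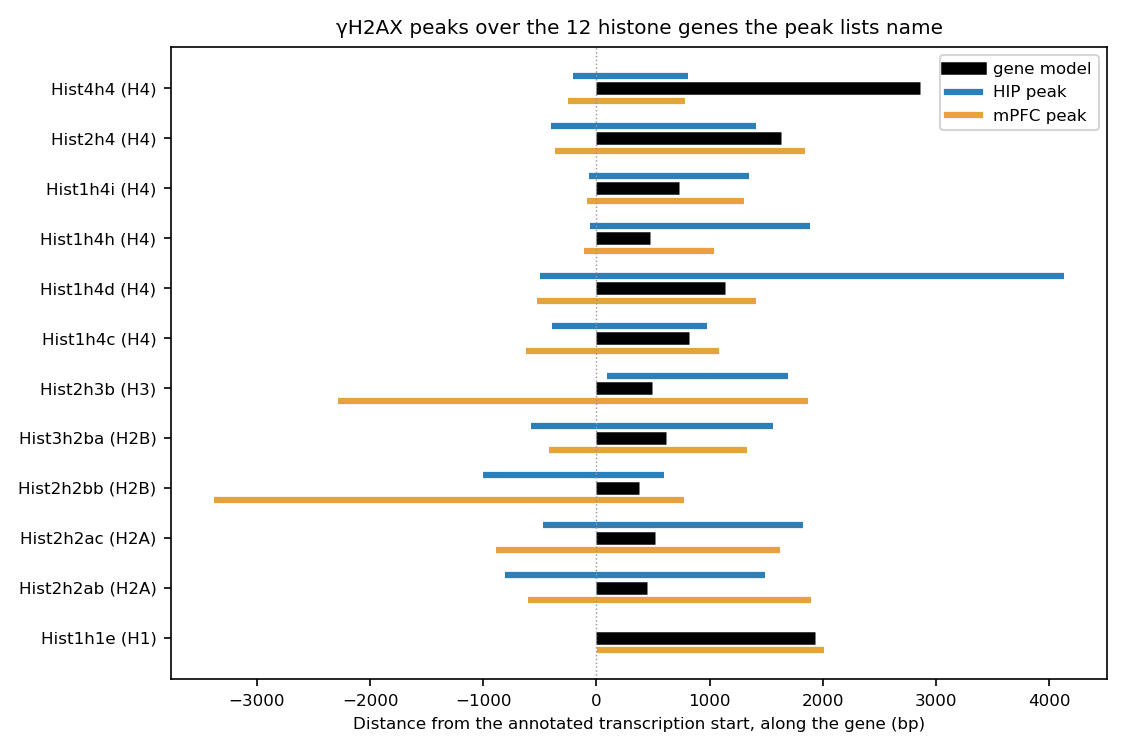
Extent of the γH2AX peaks of both regions (coloured bars) around the 12 histone genes named in the peak lists, as distance in bp from the annotated start along the gene; black bars are gene models. Most peaks begin within 1000 bp before the start and run past the end of the gene, and the Hist4h4 peaks cover only its first part.

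The histone peaks were narrow. Their median width was 1819 bp (1019 to 4636) in the hippocampus and 1843.5 bp (1034 to 4157) in the mPFC, against 16366 and 18488.5 bp for the other peaks. In each region 8 of the 14 peaks under 2500 bp belonged to a histone gene. The authors assigned genes to peaks by overlap, and the histone genes have a median length of 539 bp.

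**Figure D5:**
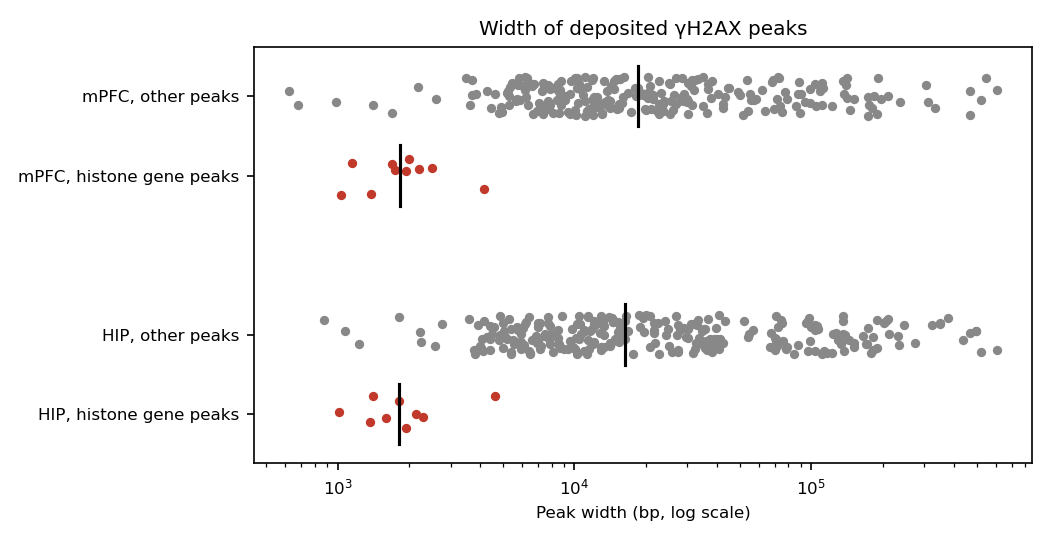
Width of each deposited γH2AX peak in bp on a log axis, for peaks named for a histone gene (red) and other peaks (grey) in both regions; vertical bars are medians. The histone peaks (median 1819 and 1843.5 bp) lie at the narrow end of both lists.

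Genes with a named peak had more RNA per length than those without. The 12 genes had a median of 0.872 FPKM over all libraries (0.280 to 2.02) and the 55 others 0.115 (0 to 2.92). Within the H4 class, whose genes encode 1 protein, the 6 genes with a peak had a median of 0.834 FPKM and the 7 without 0.201. The gene with the most RNA per length, Hist3h2a, had no peak, whereas its neighbour Hist3h2ba at 0.578 FPKM had one in both regions. Reads from near-identical copies cannot be placed with certainty in either assay: of the 30 genes with at least 50% of 50-base stretches shared, 1 had a named peak, and of the other 37, 11 did. The part of this in the peak pattern was not tested.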

How the data were processed

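Nuclear RNA-seq counts of 74 libraries were analysed, and the γH2AX peak lists stood for the 14 ChIP-Seq samples. The authors made the deposited counts from stranded total RNA libraries by trimming with Trimmomatic, alignment with HISAT2, removal of duplicates with Picard and counting over gene bodies with featureCounts on GRCm38. The annotation, strand and multiple-match settings of the counting are not given in the sources used here. The authors mapped ChIP reads with Bowtie2, removed duplicates, downsampled and merged replicates and called broad peaks with MACS2, and the deposited lists carry no score.

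From the deposited counts, edgeR 4.0.16 in R 4.3.3 fitted the quasi-likelihood test with TMM over all genes with a mean above 0.2 FPKM in at least 1 compared group, with Benjamini-Hochberg adjustment over all genes tested. CPM used library totals. Names, positions and lengths came from GENCODE vM21, which held 53682 of the 53749 gene IDs. The identical libraries entered once, leaving 73. The code was tested on simulated data. Alternatives were DESeq2 1.42.0, RLE scaling, no filter, a mean count of at least 10, a replicate block and leaving out each library. Sequences and overlaps were read with Python 3.11.15, pysam 0.24.0 and Biopython 1.88, and figures were drawn with matplotlib 3.10.9. Peaks were counted at an overlap of at least 1 bp.

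The histone genes and the gene lists were chosen with earlier results of these data known. Genes were named if they lay under a peak, were among the 4 largest rises or falls called in a comparison with a mean count of at least 10 in the higher group, were among the 10 highest by CPM or 5 by FPKM, or had 1 of the 2 smallest p where none was called. Hist1h1t and the class sums were chosen after their values were seen. Whether the replicates of a group were separate animals is stated only in part, so p-values measure the spread between these libraries.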

Additional observations from a re-analysis of the deposited data

Results flagged for a closer look

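The summed level and the named genes with a mean of at least 10 counts gave 117 sets of values, 1 for each group, of which 5 held a library whose gap to the nearest other exceeded Dixon's 95% critical value. Chance marks about 1 in 20 such sets. Hist1h1c had 4.33 CPM in library 2 of the hippocampal NeuN- nuclei 10 minutes after CFC and 2.73 to 2.93 in the others, and this is the library with 38.1 CPM of choroid plexus markers. Hist1h2bc had 3.33 CPM in saline 3X- library 3 and 5.95 to 6.28 in the others, and it lay inside the corticosterone range there. Hist1h4d had 1.47 CPM in library 1 of the hippocampal NeuN+ nuclei 10 minutes after CFC and 0.561 to 0.711 in the others. Hist3h2a had 6.46 CPM in GFAP+ library 3 after corticosterone and 4.55 to 4.83 in the others. Hist4h4 had 2.27 CPM in saline PU.1+ library 2 and 1.38 to 1.48 in the others.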

How the results depend on the processing

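The counts of called histone genes kept their size under RLE scaling in all 22 comparisons, and no gene named reversed its direction under any alternative. With DESeq2 the count was 6 between hippocampal fractions, 0 and 1 in hippocampal NeuN+ nuclei at 10 and 30 minutes, 1 in NeuN- nuclei at 10 minutes, 0 in mPFC NeuN+ nuclei at 10 minutes and 0 in 3X- nuclei after corticosterone. DESeq2 gave no adjusted p to 21 of 23 genes in hippocampal NeuN+ nuclei, 35 of 38 in NeuN- nuclei at 10 minutes, 18 of 21 in mPFC NeuN+ nuclei at 10 minutes and 29 of 36 in 3X- nuclei. Named genes lacked one in other comparisons as well, and a gene without an adjusted p could not be called. With a mean count of at least 10, which tests fewer genes, it was 5 between hippocampal fractions, 9 for GFAP+ nuclei, 1 in mPFC NeuN+ nuclei at 30 minutes (Hist2h2bb) and 0 in PU.1+ and 3X- nuclei after corticosterone. There Hist1h2bc missed the threshold with edgeR adjusted p of 0.0505 and 0.0622. With no filter it was 2 in hippocampal NeuN+ and NeuN- nuclei at 10 minutes and 2 in GFAP+ nuclei after corticosterone, where Hist1h2bc fell by 0.71 on the log2 scale with an edgeR adjusted p of 0.00418, and Hist3h2a in NeuN- nuclei at 10 minutes had an adjusted p of 0.000711. The cause of these shifts was not tested.

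No comparison had a correlation over 0.1 in every same-numbered pair, so the main fits held no replicate block. This does not show that the libraries were unpaired. The paper gated the sorted populations in turn from the same hippocampal nuclei, so populations may share mice. Over the saline populations the correlations of same-numbered pairs ran from 0.00577 to 0.183. With the replicate numbers as a block the count in hippocampal NeuN+ nuclei at 10 minutes was 2, and the Hist1h2be call in NeuN- nuclei at 30 minutes was lost (edgeR adjusted p = 0.0515). The other counts with a block stayed within 1.5 times. For the interactions no block was fitted and no library was left out, although NeuN+ and NeuN- libraries may share mice.

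Leaving out 1 library gave 7 to 10 genes between hippocampal fractions (11 with all), 1 to 2 and 0 to 3 in hippocampal NeuN+ nuclei at 10 and 30 minutes, 0 to 1 and 0 to 2 in NeuN- nuclei, 0 to 1 in mPFC NeuN+ nuclei at 10 minutes, 0 to 1 in mPFC NeuN- nuclei at 30 minutes and 0 to 1 each in GFAP+, PU.1+ and 3X- nuclei after corticosterone. Of the named fraction and population calls 22 of 24 held in every such fit, and of the CFC and corticosterone calls 1 of 10. Depth limits these results: 37 of 67 genes averaged under 1 count per library, which limits what could be detected in them, and copies that share sequence cannot be separated with certainty.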

Other observations

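In hippocampal NeuN- nuclei 3 of 15 tested genes for transcription and processing of histone mRNA were higher and 8 lower than in NeuN+ nuclei, where 37.4% of all genes were higher and 35.7% lower. In saline PU.1+ nuclei 8 were higher and 5 lower, where 36.9% of all genes were higher and 35.4% lower. Slbp, which binds the stem-loop, was higher by 0.77 ± 0.17 in hippocampal NeuN-, 0.59 ± 0.18 in mPFC NeuN- and 1.62 ± 0.17 in PU.1+ nuclei on the log2 scale. Cstf2, a cleavage factor, had log2 fold changes of -2.01, -2.48 and -2.17 in the same comparisons.

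Of the genes of DNA replication and S phase, 5 of 10 tested were higher and 2 lower in hippocampal NeuN- nuclei, 6 of 11 and 3 in mPFC NeuN-, 5 of 11 and 2 in GFAP+, 6 of 11 and 2 in PU.1+ and 9 of 11 and 1 in 3X- nuclei. Of all genes 73.1%, 72.3%, 64.4%, 72.3% and 65.1% were called in these comparisons, in the same order. As higher alone it was 37.4%, 37.4%, 31.7%, 36.9% and 33.9%, and the difference from these shares was not tested. Fewer genes of the list passed the filter within hippocampal NeuN+ nuclei, so some passed here only through glial nuclei, where they are high. The counts as higher are therefore a description. Mcm3, a subunit of the replicative helicase, had log2 fold changes of 4.13 ± 0.36 in hippocampal NeuN-, 5.75 ± 0.41 in mPFC NeuN- and 4.04 ± 0.40 in 3X- nuclei. Hist1h1t, known as a testis linker histone, was called higher in GFAP+ nuclei by 1.70 on the log2 scale by edgeR and was not called by DESeq2. It passed the filter only through GFAP+ nuclei, where it is high (0.426 FPKM, against 0.0897 in NeuN+).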
